A study of Saccharomyces cerevisiae with 10 samples.

Results

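The genes described here are the 57 of *Saccharomyces cerevisiae* that encode the proteins of the small (40S) cytoplasmic ribosomal subunit, *RPS0A* (YGR214W) to *RPS31* (YLR167W), together with *ASC1* (YMR116C). They were picked by their systematic names from the 6607 genes of the count table. The names and not the values set the list, although the gene family was selected with earlier results of these data known. Of the 57 genes, 48 form 24 pairs of near-identical copies (A and B), and 9 are single-copy genes. All 57 passed the filter on low counts and were tested.

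RNA was sequenced from 10 yeast cultures in 3 groups. The *sup35-218* group (3 cultures, strain 218-L-14-D1690, stage 3) carried plasmid pRSU1-218, and was obtained by plasmid shuffling, in which a second plasmid replaces the first. The *SUP35* stage 3 group (4 cultures, strain L-14-D1690) went through the same shuffling with the wild-type allele, and the *SUP35* stage 1 group (3 cultures, strain U-14-D1690) is the initial strain, in which a *URA3* plasmid supplies Sup35. All 3 groups are labelled MATa, with the nonsense alleles ade1-14(UGA) and trp1-289(UAG) as reporters, carry the markers his3-d200 and lys2 along with ura3-52 and a *leu2* allele, and have a chromosomal *SUP35* gene replaced by HIS3MX, so that every culture, controls included, depended on a plasmid copy. According to the methods of the study, the stage 3 strains have a *LEU2* plasmid and grew without leucine, whereas the initial strain grew without uracil, although the labels name pRSU2 for both *SUP35* groups and SC medium, with no omission, for all cultures. This difference between the sources was not resolved. Plasmid marker, medium and stage thus change together and cannot be told apart. The number of independent clones behind the cultures is not given in the sources used here.

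Sup35 is the translation termination factor eRF3, and *sup35-218* is a nonsense allele of its gene. The small subunit holds the decoding centre, where codons are read, and its proteins are grouped by position into the head, the body and the platform. Several of them set how accurately codons are read. Alleles of *RPS2* and *RPS9B* were isolated as suppressors of stop codons, and changes in Rps23 alter accuracy as well. Ribosomal protein genes of yeast are transcribed together, under Rap1, Fhl1, Ifh1 and Sfp1, and they hold a large part of the introns of this genome. Since most are present as A and B copies, a cell can keep the amount of a protein while changing which copy supplies it.

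Reads can be divided between the copies of a pair only where their sequences differ. The stretches below are shown because the pairs they belong to carry the comparisons that follow, and each gives 60 bases of coding sequence, 5′ to 3′, from genome build R64, with the bases that differ between A and B in capitals.
RPS14A, YCR031C (chrIII:177833-177892, minus strand): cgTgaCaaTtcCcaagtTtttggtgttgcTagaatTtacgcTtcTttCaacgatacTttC
RPS14B, YJL191W (chrX:74219-74278, plus strand): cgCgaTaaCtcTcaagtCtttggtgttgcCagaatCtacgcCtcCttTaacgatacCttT
RPS26A, YGL189C (chrVII:148244-148303, minus strand): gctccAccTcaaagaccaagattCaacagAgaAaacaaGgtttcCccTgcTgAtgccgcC
RPS26B, YER131W (chrV:424237-424296, plus strand): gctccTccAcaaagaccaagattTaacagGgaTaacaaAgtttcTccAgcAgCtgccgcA
RPS9A, YPL081W (chrXVI:405670-405729, plus strand): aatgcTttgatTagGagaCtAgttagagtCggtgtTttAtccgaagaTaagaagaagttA
RPS9B, YBR189W (chrII:605140-605199, plus strand): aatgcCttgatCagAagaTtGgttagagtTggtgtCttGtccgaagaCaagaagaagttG
RPS21A, YKR057W (chrXI:552075-552134, plus strand): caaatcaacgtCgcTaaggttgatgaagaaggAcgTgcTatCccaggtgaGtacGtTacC
RPS21B, YJL136C (chrX:156658-156717, minus strand): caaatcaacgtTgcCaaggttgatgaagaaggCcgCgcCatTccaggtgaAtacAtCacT
RPS25A, YGR027C (chrVII:534231-534290, minus strand): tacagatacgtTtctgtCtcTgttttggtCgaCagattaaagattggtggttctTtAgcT
RPS25B, YLR333C (chrXII:795672-795731, minus strand): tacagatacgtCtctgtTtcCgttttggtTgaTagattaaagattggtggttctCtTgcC
RPS22A, YJL190C (chrX:74955-75014, minus strand): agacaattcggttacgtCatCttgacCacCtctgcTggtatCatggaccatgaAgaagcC
RPS22B, YLR367W (chrXII:857213-857272, plus strand): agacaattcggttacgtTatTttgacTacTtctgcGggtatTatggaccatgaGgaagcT

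These stretches hold 12 differing bases in *RPS14*, 11 in *RPS26*, 10 in *RPS9* and *RPS21* and 8 in *RPS25* and *RPS22*. Over the whole coding sequence, identity between A and B was 92.1% for *RPS14*, 92.2% for *RPS26*, 90.9% for *RPS9* and *RPS21*, 92.4% for *RPS25* and 89.6% for *RPS22*. Among all 24 pairs it was lowest in *RPS27* (84.3%) and highest in *RPS6* (99.2%). In 20 pairs, no stretch of 150 bases, the length of one read, occurs in both copies. Among the other pairs, 40.0% of such stretches occur in both copies of *RPS6*, 1.41% in *RPS4* and 1.16% in *RPS24*, so the division of reads within *RPS6* is uncertain. The counted length of each gene is its whole span, which includes non-coding bases in 45 of the 57 genes, and 37 have an intron in the coding part. The counted span of *RPS22B* (chrXII:855878-857317, plus strand) includes the small nucleolar RNA gene *SNR44*, and that of *ASC1* (chrXIII:499456-500688, minus strand) includes *SNR24*. *RPS2* and *RPS27A* each overlap another listed gene on the opposite strand and *RPS26A* overlaps YGL188C-A on its own strand, so reads there may be divided or dropped. The strand setting of the counting is not given in the sources used here.

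Total counts were 3044096 to 4861009 per culture, and a share that 3 counts allow was 6.17e-05% to 9.86e-05% (counting error only). Counting error alone did not cover the spread of replicates, with a chi-square per degree of freedom of 6.29 to 21.97. Every SD below is therefore the spread between cultures. The SE of a log2FC instead comes from the edgeR fit, which shares its estimate of spread over all 3 groups and across genes. *SUP35* itself stood at 1979 ± 184 normalized CPM in *sup35-218*, 602 ± 140 in *SUP35* stage 3 and 436 ± 39.8 in *SUP35* stage 1 (CPM, library-scaled counts with TMM factors, SD over 3, 4 and 3 cultures). All 6 a-cell markers and all 4 α-cell markers had counts in every culture of a strain labelled MATa. The summed a-cell level was 96.9 to 116 CPM in *sup35-218*, 88.6 to 226 in *SUP35* stage 3 and 236 to 598 in *SUP35* stage 1, while the α-cell sum was 753 to 1042, 1384 to 1680 and 1424 to 1830 CPM in these groups. The defining α-cell markers *MF(ALPHA)1*, *STE3* and *SAG1* thus were not absent, and the summed α-cell level was above the a-cell level in every group, which goes against the mating type of the label. The marker levels moved with the groups, and their part in the results below was not tested.

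One culture stood apart in the genes described here. The 57 genes took 1.91% of the counts in replicate 3 of *SUP35* stage 1, against 1.30% and 1.42% in the other two cultures of its group. Counts of calls, medians, shares of counts and the leading genes and pairs that rest on the stage 1 cultures are therefore also given without it. Because this culture was picked by its high share in these same genes, leaving it out lowers the stage 1 share by construction. Larger differences without it are thus no independent support.

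Per length, the small subunit genes were among the more abundant transcripts, and they spanned an 11.2-fold range. Over all 10 cultures, levels were 181 to 2036 normalized CPM per kb of coding sequence, with a median of 688, beside 512 for the 81 large subunit genes and 66.5 for the 5869 genes ranked. All 57 lay above this last median, and 44 were among the top 500 genes. *RPS12* (a head protein) averaged 2036 CPM per kb, *RPS31* (made as a fusion of ubiquitin with a 40S protein) 2021 and *RPS30A* 1965. Counts cover the whole span but were divided by coding length alone, which may raise genes with non-coding bases. The span of *RPS30A* is 622 bases, of which 192 are coding, while those of *RPS12* and *RPS31* are all coding. At the other end were *RPS28B* with 181 CPM per kb and *RPS27A* with 252. Both have a partner copy at a higher level. *RPS28A*, for example, had 1284 ± 93.3 CPM per kb in *sup35-218*, 1158 ± 122 in *SUP35* stage 3 and 839 ± 145 in *SUP35* stage 1, where *RPS28B*, whose mRNA is held down by the Rps28 protein through Edc3, had 192 ± 47.1, 161 ± 28.9 and 198 ± 23.6 CPM per kb (SD, n = 3, 4 and 3).

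**Figure D1:**
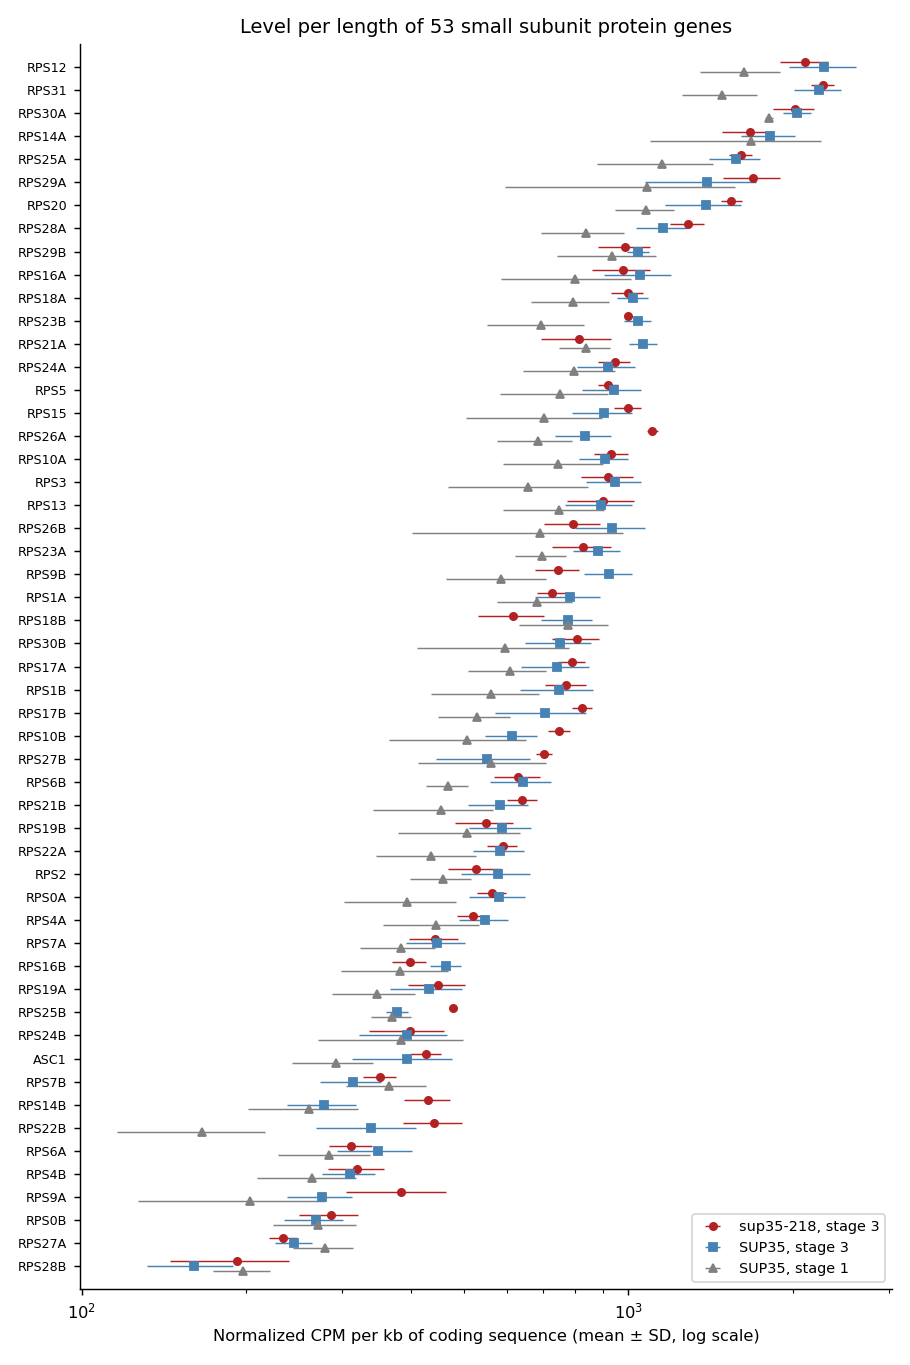
Level of 53 small subunit protein genes in normalized CPM per kb of coding sequence, on a log axis, as mean ± SD over 3 *sup35-218*, 4 *SUP35* stage 3 and 3 *SUP35* stage 1 cultures. Genes are ordered by their mean over all 10 cultures, from 2036 for *RPS12* to 181 for *RPS28B*. Counts cover the whole span of a gene, including non-coding bases.

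In most pairs the A copy gave more of the counts. Averaged over all cultures, the A share, which is the percent of a pair's counts that fall on A, was above 50% in 19 of 24 pairs, and it was above 50% in every culture in 13 pairs. The B copy was ahead in every culture in 4 pairs. The highest A shares were those of *RPS28* (85.5%), *RPS14* (84.3%) and *RPS25* (77.9%), and the lowest those of *RPS9* (27.1%), *RPS27* (30.1%) and *RPS6* (35.2%).

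**Figure D2:**
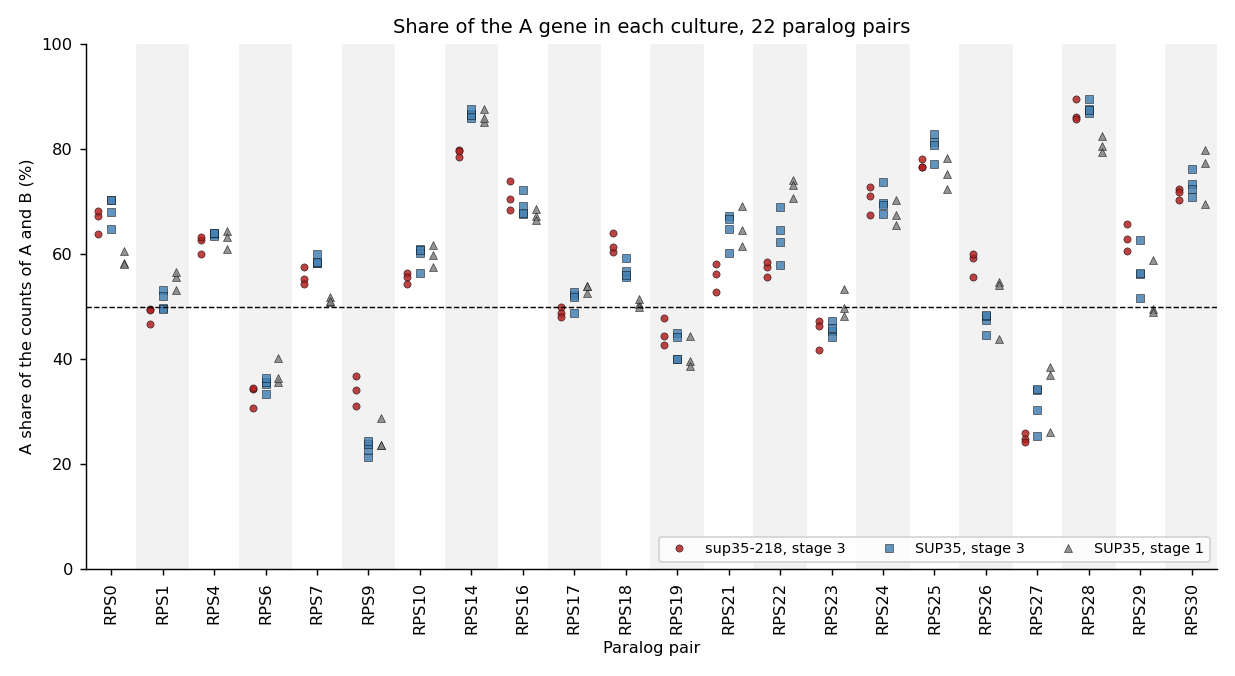
A share, the percent of the counts of a paralog pair that fall on the A gene, in each culture, for 22 pairs. Each point is 1 culture, and the dashed line marks equal counts. In *RPS26* and *RPS9* all *sup35-218* cultures lie above all *SUP35* stage 3 cultures, and in *RPS14* and *RPS21* below them.

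The comparison of *sup35-218* with *SUP35* at stage 3 asks what the nonsense allele changes within stage 3, where plasmid marker and medium are the same by the methods of the study but not by the plasmid names of the labels. The small subunit genes together took 2.03%, 2.06% and 1.79% of counts in the *sup35-218* cultures and 1.70%, 2.08%, 1.89% and 2.09% in the *SUP35* stage 3 cultures. The groups overlapped, with means of 1.96% ± 0.149 and 1.94% ± 0.185 (SD, n = 3 and 4, exact two-sided permutation p = 0.914). The large subunit genes took 2.36% ± 0.207 and 2.32% ± 0.195 of counts (exact p = 0.743). Of the 57 genes, 3 were higher and 1 was lower at an adjusted p under 0.05 in edgeR's quasi-likelihood test, where 18.5% of all 5856 genes tested were higher and 20.7% lower. Both counts of members were thus below the background. One gene, *RPS14B*, also had a log2FC over 0.5, as did 10.7% of all genes. The log2FC was above 0 in 30 genes, beside 48.7% of all genes, and its median was 0.02 over the 57 genes and -0.01 over all genes. All cultures were higher without overlap in 4 genes, beside 20.9% of all genes, and lower in 2, beside 22.8%.

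**Figure D3:**
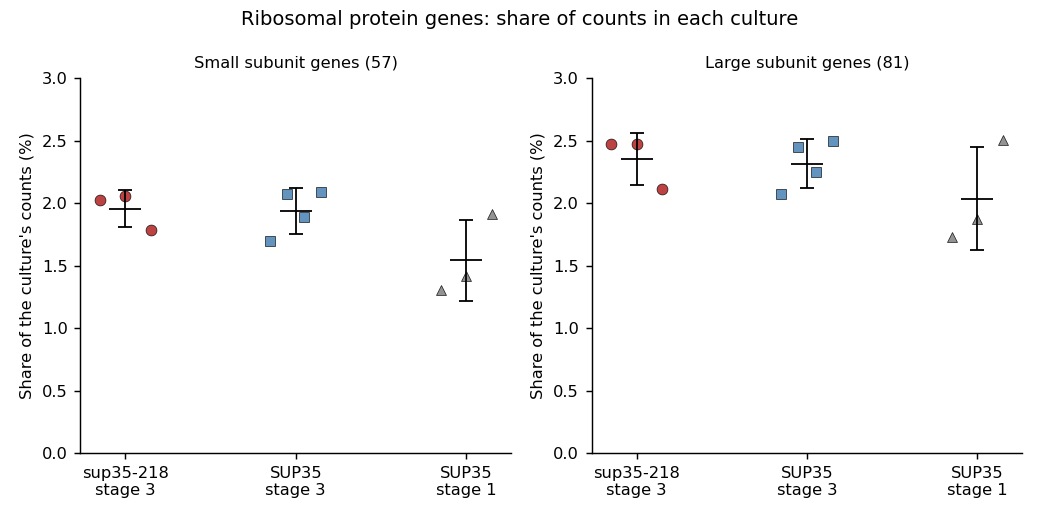
Share of each culture's counts that falls on the 57 small subunit genes (left) and the 81 large subunit genes (right). Points are cultures, bars are mean ± SD. The stage 3 groups overlap, and 1 *SUP35* stage 1 culture, at 1.91% for the small subunit, lies with the stage 3 cultures.

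The 4 genes that passed the test were all one copy of a pair. *RPS14B* encodes the platform protein Rps14, which restrains splicing of its own *RPS14B* pre-mRNA. It stood at 180.3, 196 and 162 CPM in *sup35-218*, against 104, 140.4, 109.7 and 109 CPM in *SUP35* stage 3, so that the groups did not overlap, and its log2FC was 0.63 ± 0.14 (SE, edgeR adjusted p = 0.00352). Its partner *RPS14A*, the main source of the protein, stood at 661, 777 and 636 CPM in *sup35-218* and at 676, 863, 696 and 774 CPM in *SUP35* stage 3. The *RPS14A* ranges overlapped, with a log2FC of -0.12 ± 0.18 (adjusted p = 0.630).

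*RPS26A* encodes Rps26, which sits where mRNA leaves the subunit. It had 401, 407 and 389 CPM in *sup35-218*, against 254, 338, 294 and 314 CPM in *SUP35* stage 3. All 3 mutant cultures were above all 4 wild-type ones, with a log2FC of 0.41 ± 0.12 (adjusted p = 0.0157). The copy *RPS26B* had 275, 323 and 259 CPM in *sup35-218* and 281, 362, 313 and 391 CPM in *SUP35* stage 3, with a log2FC of -0.24 ± 0.21 (adjusted p = 0.390).

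*RPS25B* encodes Rps25, a head protein used in internal initiation. Its 159, 155 and 155 CPM in *sup35-218* were all above the 129, 124, 126 and 115 CPM in *SUP35* stage 3, and the spread within groups was small (2.05 and 5.76 CPM, SD). The log2FC was 0.34 ± 0.09 (adjusted p = 0.00868). *RPS25A*, with the larger part of the counts, averaged 526 ± 25.9 CPM in *sup35-218* and 515 ± 55.1 CPM in *SUP35* stage 3 (log2FC 0.03 ± 0.14, adjusted p = 0.887).

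*RPS21A* was the one gene that fell. It encodes Rps21, which lies on the solvent side of the body beside Rps0, and it had 232, 232 and 178 CPM in *sup35-218*, against 271, 271, 306 and 278 CPM in *SUP35* stage 3. The groups did not overlap and the log2FC was -0.39 ± 0.11 (adjusted p = 0.0145), but without *sup35-218* replicate 3, the lowest culture, the adjusted p was 0.123 and the call was lost. *RPS21B* stood at 167, 180.2 and 159.6 CPM in *sup35-218* and 132, 179, 153 and 151 CPM in *SUP35* stage 3, with a log2FC of 0.14 ± 0.14 (adjusted p = 0.471).

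*RPS9A* and *RPS9B* encode Rps9, the decoding accuracy protein at the entry of the mRNA channel. *RPS9A* stood at 268, 241 and 176 CPM in *sup35-218* and at 134, 180.4, 159 and 181 CPM in *SUP35* stage 3, so that the lowest mutant culture overlapped the wild type (log2FC 0.48 ± 0.20, adjusted p = 0.0701). *RPS9B* stood at 459, 464 and 391 CPM in *sup35-218*, each below the 492, 612, 508 and 561 CPM in *SUP35* stage 3 (log2FC -0.31 ± 0.14, adjusted p = 0.0898). Neither passed the test with all cultures. Without *SUP35* stage 1 replicate 3, a culture of neither group, both did (adjusted p = 0.0159 for *RPS9A* and 0.0412 for *RPS9B*), and *RPS9A* also did with only the compared groups or without *sup35-218* replicate 3. The division of *RPS9* reads differed: the A share was 36.9%, 34.2% and 31.0% in *sup35-218*, against 21.4%, 22.8%, 23.8% and 24.4% in *SUP35* stage 3, with no overlap.

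**Figure D4:**
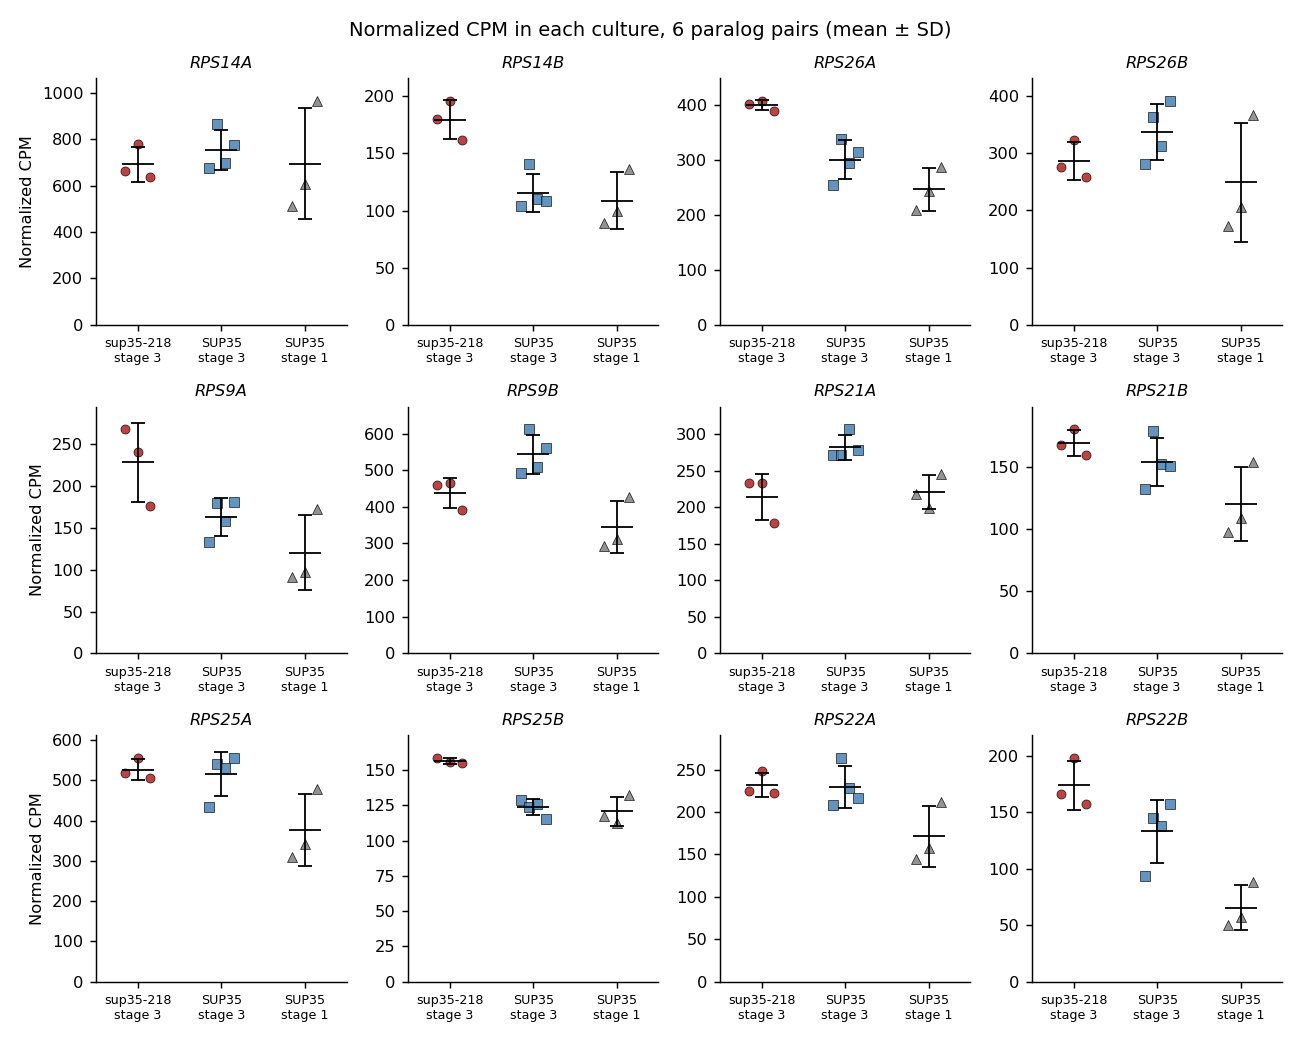
Normalized CPM of both copies of 6 paralog pairs in each culture, with mean ± SD (3 *sup35-218*, 4 *SUP35* stage 3 and 3 *SUP35* stage 1 cultures). The *sup35-218* cultures of *RPS14B*, *RPS26A* and *RPS25B* are all above the *SUP35* stage 3 cultures, those of *RPS9B* and *RPS21A* all below, and for *RPS14A*, *RPS26B*, *RPS25A* and *RPS21B* the stage 3 groups overlap.

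The division within each pair and the sum of the pair were compared between these groups by overlap of cultures. With 3 against 4 cultures, overlap does not show that the sums were equal. The A share did not overlap in 8 of 24 pairs, with 3 higher and 5 lower in *sup35-218*, whereas the summed CPM of A and B overlapped in every one of the 24 pairs. Among large subunit pairs, the share did not overlap in 12 of 35 (34.3%) and the sum in 0 of 35 (0.00%), so that 8 of 24 (33.3%) is near that background. The median size of the difference was 2.63 points in small subunit pairs and 1.74 points in large subunit pairs, and the largest was 11.2 and 8.23 points, with no test of these sizes. The largest difference was that of *RPS26*, with an A share of 58.3% ± 2.30 in *sup35-218* and 47.2% ± 1.82 in *SUP35* stage 3 (SD, n = 3 and 4), which is 11.2 points. *RPS9* followed with 34.0% ± 2.91 and 23.1% ± 1.33, a difference of 10.95 points. *RPS21* had 55.7% ± 2.74 in *sup35-218* and 64.7% ± 3.21 in *SUP35* stage 3, a difference of -9.01 points. *RPS14* had 79.4% ± 0.701 and 86.7% ± 0.719, a difference of -7.32 points and the smallest spread of the 4 pairs. Each of these 4 differences had an exact two-sided permutation p of 0.0571, the smallest that 3 against 4 cultures allow, so none of the 24 pairs compared could pass 0.05.

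The sums of these 4 pairs overlapped between the groups. *RPS14A* and *RPS14B* together stood at 871 ± 91.1 CPM in *sup35-218* and 868 ± 100.4 CPM in *SUP35* stage 3. The *RPS26* sum was 685 ± 41.9 and 637 ± 81.5 CPM, that of *RPS9* 667 ± 86.7 and 706 ± 74.8 CPM, and that of *RPS21* 383 ± 40.0 and 435 ± 24.9 CPM. Over all 24 pairs the ratio of the mean sums, *sup35-218* over *SUP35* stage 3, ran from 0.881 to 1.18 with a median of 1.01. In bulk RNA, a share of the counts cannot tell more transcripts per cell from a changed amount of other RNA.

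With all cultures, none of the genes listed for decoding accuracy passed the test between these groups (edgeR, 0 of 7). Of all genes tested, 18.5% were higher and 20.7% lower. Only 3 of the 57 small subunit genes were higher and 1 was lower, so 0 of 7 does not set this list apart from the other members. In 1 to 3 of the 18 alternative settings, *RPS9A*, *RPS9B* and *RPS28B* each passed. The list (*RPS2*, *RPS9A*, *RPS9B*, *RPS23A*, *RPS23B*, *RPS28A* and *RPS28B*) had a median log2FC of -0.06 over its 7 genes. It includes *RPS28A* and *RPS28B*, for which no role in accuracy is claimed here. Its counts and median therefore do not describe accuracy genes alone. *RPS2*, at the mRNA entry, averaged 403 ± 45.2 CPM in *sup35-218* and 442 ± 63.0 CPM in *SUP35* stage 3 (log2FC -0.13 ± 0.13, adjusted p = 0.450). *RPS23A* and *RPS23B*, whose protein reaches into the decoding centre, had log2FC of -0.09 ± 0.12 and -0.06 ± 0.12, *RPS28A* had 0.15 ± 0.12 and *RPS28B* 0.26 ± 0.18. Single-copy *RPS31* averaged 1042 ± 49.4 and 1025 ± 100.4 CPM (log2FC 0.02 ± 0.13). *ASC1*, whose product is the yeast RACK1 scaffold on the head, averaged 409.7 ± 26.4 and 378 ± 78.5 CPM (log2FC 0.12 ± 0.15).

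The comparison of *sup35-218* with the initial *SUP35* strain at stage 1 combines the allele with plasmid, medium and shuffling. Small subunit genes were mostly higher in *sup35-218*: 51 of 57 had a log2FC above 0, beside 53.0% of all genes tested, and 25 rose at an adjusted p under 0.05, beside 22.9%. Of these, 14 also had a log2FC over 0.5, beside 14.7% of all genes. The median log2FC was 0.33 over the 57 genes and 0.04 over all genes, and it was 0.24 to 0.50 with single cultures left out (0.50 without *SUP35* stage 1 replicate 3). None was lower by edgeR, where 23.3% of all genes were, while 2 were lower at an unadjusted p under 0.05 and 0 by DESeq2. The groups did not overlap in 22 genes that were higher, beside 28.4%, and in 2 that were lower, beside 28.1%. The size of the set that rose depended on the stage 1 cultures. Without replicate 3 of *SUP35* stage 1, 38 rose. Without its replicate 1, 10 rose, and without its replicate 2, 12 rose. The share of all genes that rose in these settings is not given here, so these counts have no background beside them. As a share of all counts, the 57 genes took 1.96% ± 0.149 in *sup35-218* and 1.55% ± 0.324 in *SUP35* stage 1 (SD, n = 3 each, exact two-sided permutation p = 0.200, where 0.1 is the smallest possible). The ranges overlapped because of the stage 1 culture at 1.91%, and without it the difference was 0.596 points (exact two-sided permutation p = 0.200), against 0.412 points with it.

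Of the 25 genes, 10 passed in each of the 18 alternative settings tried: *RPS9A*, *RPS14B*, *RPS17B*, *RPS20*, *RPS22B*, *RPS23B*, *RPS25B*, *RPS26A*, *RPS28A* and *RPS31*. The largest rise was that of *RPS22B*, which encodes Rps22, a body protein, and whose pre-mRNA is a substrate of the RNase III enzyme Rnt1. The counted span of this gene is 1440 bases, of which 393 are coding, and it includes *SNR44*. Its counts, and the A shares and sums of *RPS22* below, may thus include reads other than mature mRNA, which was not tested. *RPS22B* stood at 166, 198 and 157 CPM in *sup35-218*, against 50.5, 57.6 and 87.8 CPM in *SUP35* stage 1. All mutant cultures were well above all stage 1 cultures, with a log2FC of 1.42 ± 0.21 (edgeR adjusted p = 1.04e-04). Its copy *RPS22A* had 225, 248 and 222 CPM in *sup35-218* and 145, 157 and 212 CPM in *SUP35* stage 1 (log2FC 0.44 ± 0.14, adjusted p = 0.0193).

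*RPS9A* followed, with 268, 241 and 176 CPM in *sup35-218* and 91.6, 97.5 and 173 CPM in *SUP35* stage 1. The highest stage 1 culture, replicate 3, reached nearly the lowest mutant one, and the log2FC was 0.93 ± 0.22 (adjusted p = 0.00366). *RPS14B* had 180.3, 196 and 162 CPM in *sup35-218* and 89.5, 99.98 and 137 CPM in *SUP35* stage 1 (log2FC 0.73 ± 0.16, adjusted p = 0.00196). *RPS26A* had 401, 407 and 389 CPM and 209, 243 and 286 CPM in these groups (log2FC 0.70 ± 0.13, adjusted p = 7.37e-04). For both genes no culture of one group entered the range of the other.

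Single-copy *RPS31* stood at 1079, 1062 and 986 CPM in *sup35-218*, against 624.6, 618 and 805 CPM in *SUP35* stage 1, without overlap (log2FC 0.61 ± 0.14, adjusted p = 0.00257). *RPS28A* averaged 262 ± 19.0 and 171 ± 29.5 CPM (log2FC 0.62 ± 0.13, adjusted p = 0.00187), while *RPS28B* averaged 39.2 ± 9.62 and 40.3 ± 4.81 CPM (log2FC -0.05 ± 0.19, adjusted p = 0.856). *RPS17B*, for a head protein, averaged 339 ± 14.0 and 217 ± 32.4 CPM (log2FC 0.64 ± 0.15, adjusted p = 0.00374). *RPS29A*, for a small zinc-binding head protein, had a log2FC of 0.65 ± 0.25, but its 287, 325 and 256 CPM in *sup35-218* overlapped the 132, 142 and 281 CPM in *SUP35* stage 1. Its adjusted p of 0.0457 was lost in 6 settings and reached 0.176, while without *SUP35* stage 1 replicate 3 its log2FC was 1.08. In that setting log2FC was 1.68 for *RPS22B*, 1.27 for *RPS9A*, 0.92 for *RPS14B*, 0.82 for *RPS26A* and 0.75 for *RPS31*, and all of them passed. *ASC1* had 397, 440.0 and 392.4 CPM in *sup35-218* and 246, 261 and 334 CPM in *SUP35* stage 1 (log2FC 0.55 ± 0.16, adjusted p = 0.0139), a call that was lost without stage 1 replicate 1 or 2.

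Smaller rises included those of *RPS18A* (log2FC 0.33 ± 0.13), *RPS25B* (0.37 ± 0.10), *RPS17A* (0.38 ± 0.14) and *RPS6B* (0.42 ± 0.13), the last encoding the protein phosphorylated downstream of TORC1. Among these 4 genes, all but *RPS25B* lost the call when stage 1 replicate 1 was left out. Only 6 genes had a negative log2FC: *RPS7B*, *RPS14A*, *RPS18B*, *RPS21A*, *RPS27A* and *RPS28B*, named after their values were seen. The lowest of them was *RPS18B*, with 298, 287.8 and 229 CPM in *sup35-218* and 300.03, 311 and 416 CPM in *SUP35* stage 1 (log2FC -0.33 ± 0.15, adjusted p = 0.0818).

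**Figure D5:**
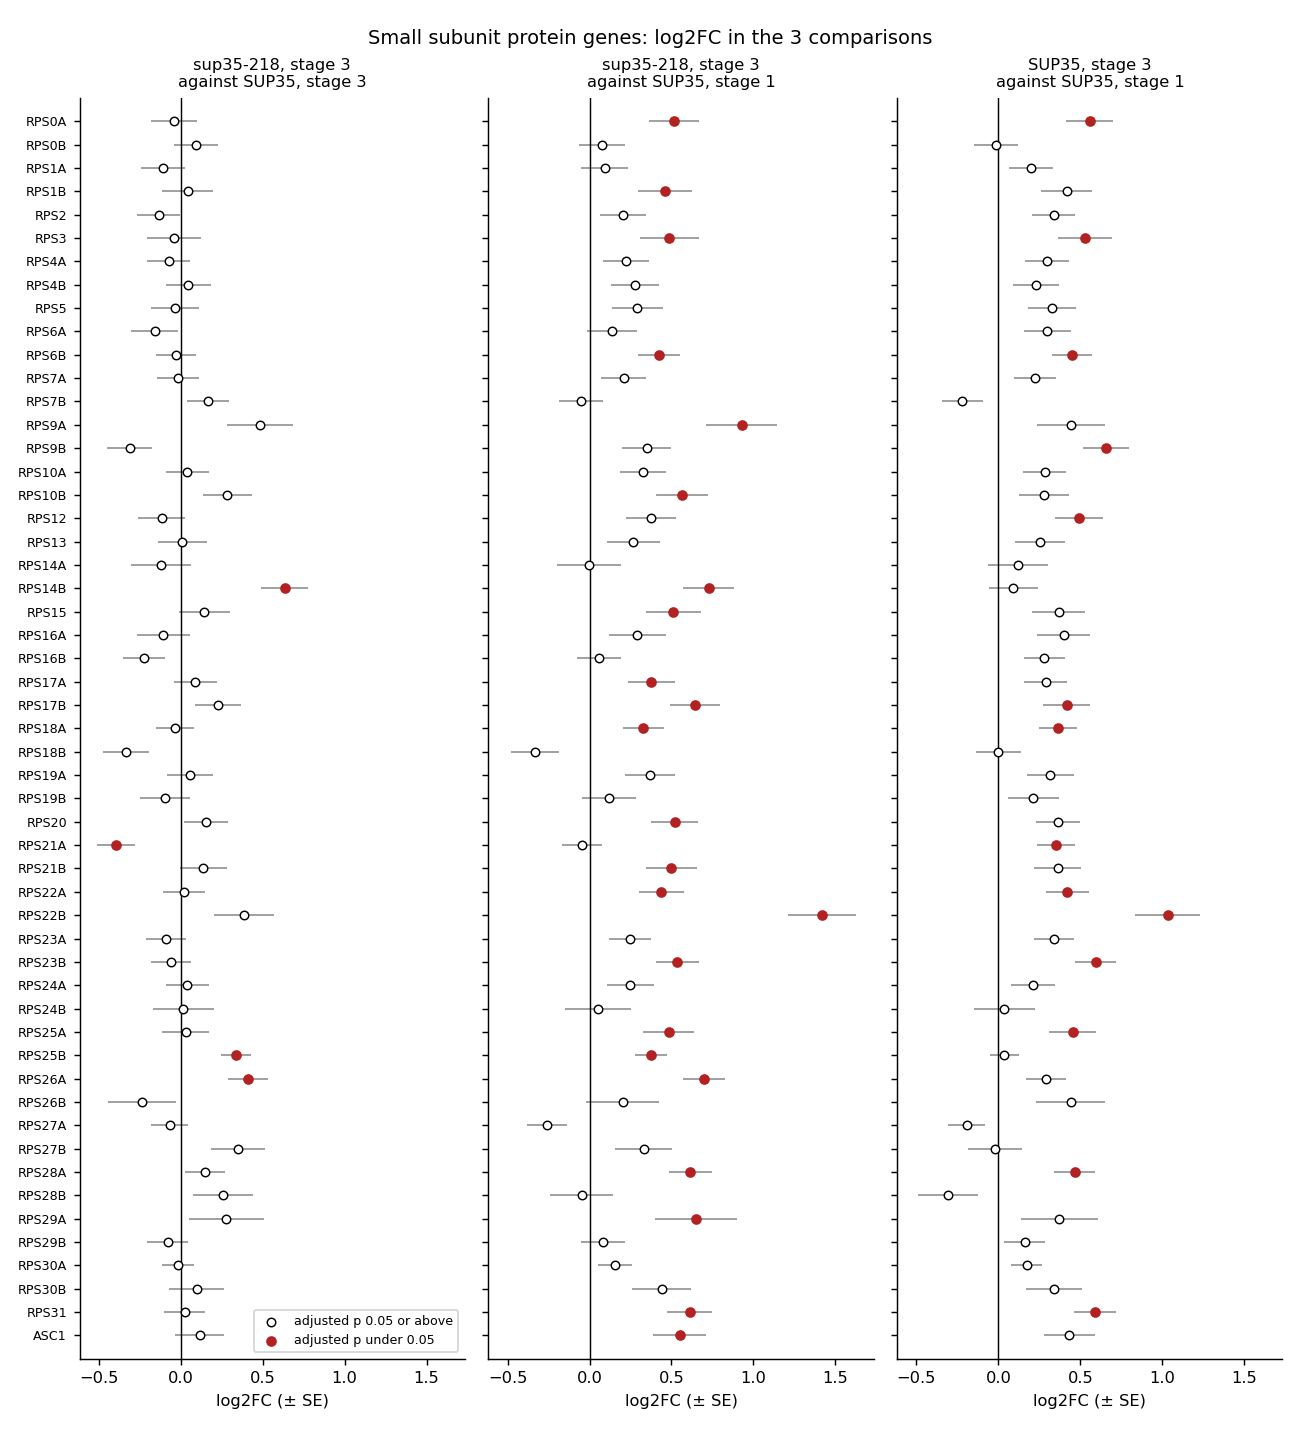
log2FC of 53 small subunit protein genes in the 3 comparisons, with its standard error. Filled points have an edgeR adjusted p under 0.05: 4 genes for *sup35-218* against *SUP35* at stage 3, 23 for *sup35-218* against *SUP35* stage 1, and 14 for *SUP35* stage 3 against *SUP35* stage 1.

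The A share of *sup35-218* and *SUP35* stage 1 did not overlap in 18 of 24 pairs, with 8 higher and 10 lower in *sup35-218*, where 14 of 35 large subunit pairs (40.0%) did not overlap. Without replicate 3 of *SUP35* stage 1, the number was 21 small subunit pairs. The large subunit share in that setting is not given here, and fewer cultures make overlap less likely, so 21 is not a stronger result than 18. The largest difference was in *RPS22*, with an A share of 57.5%, 55.6% and 58.5% in *sup35-218* and 74.1%, 73.2% and 70.7% in *SUP35* stage 1, which is -15.4 points. *RPS18* had 61.9% ± 1.80 and 50.7% ± 0.762, a difference of 11.3 points. *RPS9*, *RPS14*, *RPS21* and *RPS26* did not overlap here either, with differences of 8.59, -6.79, -9.39 and 7.49 points. Without *SUP35* stage 1 replicate 3 these were 10.3, -6.08, -11.2 and 3.95 points, so that this culture, with an A share of 43.8%, decided much of the *RPS26* value. The exact two-sided permutation p was 0.1 for each pair without overlap, the smallest that 3 against 3 cultures allow. The summed CPM of a pair was higher in *sup35-218* without overlap in 7 of 24 pairs, beside 6 of 35 (17.1%) for the large subunit, and the highest ratio of mean sums was 1.71, in *RPS22*.

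The comparison of *SUP35* at stage 3 with *SUP35* at stage 1 holds the allele constant. Here 52 of 57 genes had a log2FC above 0, beside 49.7% of all genes, and 15 rose at an adjusted p under 0.05, beside 12.7%. Of these, 7 also had a log2FC over 0.5, beside 7.21% of all genes. The groups did not overlap in 12 genes that were higher, beside 15.5%, and in 0 that were lower, beside 17.5%. The median log2FC was 0.31, against 0.00 over all genes, and it was 0.20 to 0.46 with single cultures left out (0.46 without *SUP35* stage 1 replicate 3). None was lower by edgeR, where 12.8% of all genes were, with 0 at an unadjusted p under 0.05 and 0 by DESeq2. Single cultures again moved the count: 42 rose without replicate 3 of *SUP35* stage 1, 5 without its replicate 1 and 5 without its replicate 2, 24 without replicate 1 of *SUP35* stage 3 and 8 without replicate 2 of that group. These counts too have no share of all genes beside them. The share of counts was 1.94% ± 0.185 in *SUP35* stage 3 and 1.55% ± 0.324 in *SUP35* stage 1 (SD, n = 4 and 3, exact two-sided permutation p = 0.171). The difference was 0.394 points, and 0.578 points without *SUP35* stage 1 replicate 3 (exact two-sided permutation p = 0.133). Both this comparison and the one before it use the same 3 stage 1 cultures.

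Genes that passed in every setting tried included *RPS9B*, *RPS22B*, *RPS23B* and *RPS31*. *RPS22B* stood at 93.2, 145, 137 and 157 CPM in *SUP35* stage 3, against 50.5, 57.6 and 87.8 CPM in *SUP35* stage 1 (log2FC 1.03 ± 0.20, adjusted p = 0.00236). The lowest stage 3 culture lay just above the highest stage 1 culture. *RPS9B* stood at 492, 612, 508 and 561 CPM in *SUP35* stage 3, against 294, 313 and 426 CPM in *SUP35* stage 1 (log2FC 0.66 ± 0.14, adjusted p = 0.00432), also without overlap. *RPS23B* averaged 457 ± 25.8 and 303 ± 61.2 CPM (log2FC 0.59 ± 0.12, adjusted p = 0.00419) and *RPS31* 1025 ± 100.4 and 683 ± 106 CPM (log2FC 0.59 ± 0.13, adjusted p = 0.00536).

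Smaller rises that passed included *RPS21A* (log2FC 0.35 ± 0.11), *RPS18A* (0.36 ± 0.12), *RPS17B* (0.42 ± 0.14), *RPS22A* (0.42 ± 0.13) and *RPS6B* (0.45 ± 0.12). Each was lost when stage 1 replicate 1 or 2 was left out. For the genes that rose in *sup35-218* against *SUP35* stage 3, a comparison that uses the same stage 3 cultures, log2FC was 0.09 ± 0.15 for *RPS14B* and 0.04 ± 0.09 for *RPS25B*, and *RPS26A* had 0.29 ± 0.12 (adjusted p = 0.0993).

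The A share did not overlap in 8 of 24 pairs between the *SUP35* groups, beside 12 of 35 (34.3%) for the large subunit. Without replicate 3 of *SUP35* stage 1 the number was 16 pairs, a setting with fewer cultures and no large subunit share beside it. Among the 8 pairs, *RPS0*, *RPS7*, *RPS18* and *RPS28* were higher and *RPS22* and *RPS23* lower in *SUP35* stage 3. The largest difference was 9.29 points, in *RPS0*, with 68.4% ± 2.63 in *SUP35* stage 3 and 59.1% ± 1.38 in *SUP35* stage 1. *RPS22* had 63.5% ± 4.65 and 72.7% ± 1.78, a difference of -9.20 points. In this pair the mean A share of *SUP35* stage 3 lay between those of the other 2 groups. Its cultures, at 57.9% to 69.0%, overlapped those of *sup35-218*, at 55.6% to 58.5%. The summed CPM of a pair was higher in *SUP35* stage 3 without overlap in 5 of 24 pairs, beside 2 of 35 (5.71%) for the large subunit.

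Among all genes tested, 22.9% rose in *sup35-218* and 12.7% in *SUP35* stage 3 against *SUP35* stage 1, and the counts of the following lists stand beside these shares. Grouped by position, the rises against *SUP35* stage 1 included 13 of 23 head genes in *sup35-218* and 7 of 23 in *SUP35* stage 3, and 12 of 34 and 8 of 34 genes of the body and platform. Genes without an intron in the coding part rose in 12 of 20 cases in *sup35-218* and 7 of 20 in *SUP35* stage 3, beside 13 of 37 and 8 of 37 genes with one, and whether these shares differ was not tested. A and B copies rose equally often in *sup35-218*, 10 of 24 each, and single-copy genes in 5 of 9 cases. The 81 large subunit genes gave 25 rises in *sup35-218* and 9 in *SUP35* stage 3 against *SUP35* stage 1, with median log2FC of 0.24 and 0.17. In *sup35-218* against *SUP35* stage 3 they gave 2 rises, beside 18.5% of all genes, and a median of 0.02. Of the 20 mitochondrial small subunit genes, 10 rose in *sup35-218*, and 15 rose and 1 fell in *SUP35* stage 3, against *SUP35* stage 1, where 12.8% of all genes fell in *SUP35* stage 3.

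Chaperones and late maturation factors of the subunit were counted as a list of 13. Of these, 5 rose in *sup35-218* against *SUP35* stage 3, beside 18.5% of all genes, with a median log2FC of 0.18, beside -0.01 over all genes. Against *SUP35* stage 1, 10 rose in *sup35-218* (median 0.50), beside 22.9% of all genes, and 4 in *SUP35* stage 3 (median 0.33), beside 12.7%.

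Of 15 regulators of ribosomal protein gene transcription, 2 rose and 3 fell in *sup35-218* against *SUP35* stage 3, beside 18.5% and 20.7% of all genes, so neither count was above the background. Among those named by rule, *SFP1*, an activator that enters the nucleus in growing cells, averaged 102.5 ± 13.6 CPM in *sup35-218* and 74.1 ± 8.64 CPM in *SUP35* stage 3 (log2FC 0.47 ± 0.12, adjusted p = 0.00842), and 70.8 ± 7.01 CPM in *SUP35* stage 1. *RAP1*, the general factor at these promoters, averaged 76.8 ± 4.40 and 91.9 ± 11.4 CPM in the stage 3 groups (log2FC -0.26 ± 0.12, adjusted p = 0.0962). *FHL1* had a log2FC of 0.18 ± 0.14, its coactivator *IFH1* -0.26 ± 0.14, *HMO1* -0.19 ± 0.10, the corepressor *CRF1* 0.07 ± 0.14 and the kinase *SCH9* 0.33 ± 0.14, none past the test. The Rap1 core motif, CACCC and ACA with 2 free bases between them, on either strand within 500 bases before the start codon, was found in 11 of 57 small subunit genes (19.3%), 22.2% of large subunit genes and 2.22% of all 6000 genes searched. Of the genes that passed against *SUP35* stage 3, none of *RPS14B*, *RPS21A*, *RPS25B* and *RPS26A* had it in this window. Most of the 57 genes did not have it either, so this does not set them apart. The counted spans of *RPS25B* and *RPS26A* start 436 and 378 bases before the start codon, so most of their window lies inside the counted span. Sites further upstream would be missed. In all, 9 members have a counted span that starts before the reference gene, which may lower the 11 of 57. Also searched were GACGC, found before 47.4% of small subunit, 39.5% of large subunit and 30.4% of all genes, and AAAATTTT, before 8.77%, 16.0% and 12.4%.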

How the data were processed

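Per the labels and methods, the authors trimmed paired-end reads with Trimmomatic, aligned them to R64 with HISAT2 and counted them per gene with featureCounts. The deposited values are raw counts, one column per culture. RNA enrichment and the strand setting are not given in the sources used here. Genes passing filterByExpr (minimum count 10, 5856 of 6607) were tested with edgeR 4.0.16 (R 4.3.3, limma 3.58.1) by the quasi-likelihood test with TMM scaling, all 3 groups in one fit, and Benjamini-Hochberg adjustment over all genes tested. SE is the log2FC divided by the root of F. A shares used exact two-sided permutation tests over cultures. Alternatives were DESeq2 1.42.0, other scalings and filters, only the compared groups, a replicate block and leaving out each culture. The fit was checked on simulated counts. The counts cover all 24 pairs, of which 2 are not reported here one by one. Members and lists were chosen with earlier results of these data known. Named genes were the 5 highest and 5 lowest log2FC past the threshold per comparison, both genes of the 4 pairs with the largest stage 3 difference in A share and of the 3 pairs with the highest and the 3 with the lowest share, the 3 highest and 3 lowest levels per length, the decoding genes, *RPS14A*, *RPS14B*, *RPS31*, *ASC1* and 7 regulators. Whether replicates are separate cultures of one clone is not given, so p-values measure only the spread between them.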

Additional observations from a re-analysis of the deposited data

Results flagged for a closer look

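Of 57 groups of 4 cultures, 3 held a value far from the others by Dixon's test, close to the 1 in 20 that chance gives. *RPS14B* stood at 140.4 normalized CPM in *SUP35* stage 3 replicate 2, against 104 to 109.7 CPM in the other cultures of that group. *RPS27A* stood at 68.0 normalized CPM in *SUP35* stage 3 replicate 3, against 57.9 to 59.6 CPM. The A share of *RPS7* was 59.96% in *SUP35* stage 3 replicate 3, against 58.3% to 58.6%.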

How the results depend on the processing

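Between *sup35-218* and *SUP35* at stage 3, the 3 higher and 1 lower gene became 1 and 0 when a log2FC over 0.5 was also required and 0 and 0 over 1, and 6 were higher with only the compared groups. Leaving out single cultures gave 3 to 6 higher and 0 to 3 lower genes. The difference in share of counts, 0.0177 points, lay between -0.0626 and 0.104 points, and was -0.0190 and -0.0315 without *sup35-218* replicate 1 or 2 and -0.0626 without *SUP35* stage 3 replicate 1. Against *SUP35* stage 1, the 25 genes that rose in *sup35-218* became 14 over 0.5, 1 over 1 and 10 to 38 with single cultures left out, and the 15 that rose in *SUP35* stage 3 became 7, 1 and 5 to 42. Between the *SUP35* groups, 8 to 16 pairs had an A share without overlap with single cultures left out, where fewer cultures make overlap less likely. Same-numbered cultures had mean correlations of 0.101, -0.0984 and 0.0753 in the 3 comparisons. They did not all exceed 0.1 in any comparison (0.0275 to 0.176, -0.242 to -0.000628 and -0.177 to 0.408), and the labels name no shared origin, so the numbers were not taken as pairs, although all 3 were positive between the stage 3 groups. With the replicate block, 6 genes were higher in *sup35-218* against *SUP35* stage 3, with *RPS17B*, *RPS22B* and *RPS27B* gained, and 26 and 11 rose against *SUP35* stage 1. Median log2FC over the members lay between -0.01 and 0.10, 0.24 and 0.50, and 0.20 and 0.46 in the 3 comparisons with single cultures left out. The causes of these changes were not tested beyond the smaller number of cultures. Apart from the log2FC over 0.5, the share of all genes called in these settings is not given here.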
